A study of Homo sapiens with 12 samples.

Results

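The 50 genes described here encode heat shock proteins, their partner proteins (cochaperones) and 2 heat shock transcription factors, and were picked by gene symbol. All 50 symbols were found in both deposited tables, which hold 30703 genes for KYSE150 and 30106 for KYSE410. KYSE150 and KYSE410 are established human lines of esophageal squamous carcinoma, labelled wild type. The groups were KYSE150 in hypoxia (0.5% oxygen, time point 48 h), KYSE150 in normoxia (21% oxygen, time point 0), KYSE410 in hypoxia (0.5% oxygen, 48 h) and KYSE410 in normoxia (21% oxygen, time point 0), with 3 libraries each. The design text states 48 h at either oxygen level, which leaves the culture time of the normoxic cells unsettled. No label says that the libraries of a group came from separate cultures, so each p-value measures a spread that may be technical.

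Heat shock proteins are chaperones. HSP70 proteins bind stretches of unfolded protein and release them with the help of DNAJ proteins, which stimulate their ATPase, and of nucleotide exchange factors such as the BAG and HSP110 proteins. HSP90 then completes the folding of kinases and steroid receptors with its own cochaperones, small heat shock proteins hold unfolded proteins in solution, and the CCT ring folds actin and tubulin. HSF1, the main heat shock transcription factor, binds heat shock elements, which are inverted repeats of the unit GAA. Not every gene of the group acts in the cytosol: HSPA9, TRAP1, HSPD1, HSPE1 and DNAJA3 encode proteins of the mitochondria, and HSPA13 one that was found with microsomes.

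Promoter sequences from RefSeq (GRCh38.p14) are shown for the 6 genes whose window held a heat shock element of 3 units, and for HSPA1A, the gene of the stress-inducible HSP70. Capitals mark every match to GAANNTTC or TTCNNGAA that is alone or part of a 3-unit element, and the third unit of such an element. A 3-unit element is GAA, TTC and GAA, or TTC, GAA and TTC, with any 2 bases (NN) between neighbours. Each sequence is read 5′ to 3′ on the gene's own strand and covers the 250 bases before the start of transcription, with 20 bases after it for DNAJA1. The first 5 genes listed, HSPA8, HSP90AA1, HSP90AB1, HSPD1 and HSPA1A, were higher in hypoxia in both lines. DNAJA1 and DNAJB6 were lower in hypoxia in both lines. The regions are chr11:123062137-123062386, minus strand; chr14:102087045-102087294, minus strand; chr6:44247693-44247942, plus strand; chr2:197499841-197500090, minus strand; chr6:31815293-31815542, plus strand; chr9:33025023-33025292, plus strand; and chr7:157336754-157337003, plus strand.
HSPA8: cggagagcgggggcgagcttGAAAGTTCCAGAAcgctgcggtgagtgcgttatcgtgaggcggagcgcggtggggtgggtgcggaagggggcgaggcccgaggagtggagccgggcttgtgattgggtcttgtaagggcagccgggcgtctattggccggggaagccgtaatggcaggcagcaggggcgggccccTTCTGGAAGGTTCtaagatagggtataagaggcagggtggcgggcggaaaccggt
HSP90AA1: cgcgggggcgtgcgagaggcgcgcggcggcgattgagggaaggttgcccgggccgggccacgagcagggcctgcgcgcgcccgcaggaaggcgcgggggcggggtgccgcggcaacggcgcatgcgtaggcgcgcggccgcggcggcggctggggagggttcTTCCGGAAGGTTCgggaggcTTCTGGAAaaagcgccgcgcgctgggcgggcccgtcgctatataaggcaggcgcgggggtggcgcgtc
HSP90AB1: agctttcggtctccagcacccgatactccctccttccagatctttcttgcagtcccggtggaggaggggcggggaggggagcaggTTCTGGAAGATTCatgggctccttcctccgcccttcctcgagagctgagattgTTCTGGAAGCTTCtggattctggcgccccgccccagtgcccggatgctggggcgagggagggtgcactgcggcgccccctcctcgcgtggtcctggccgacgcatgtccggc
HSPD1: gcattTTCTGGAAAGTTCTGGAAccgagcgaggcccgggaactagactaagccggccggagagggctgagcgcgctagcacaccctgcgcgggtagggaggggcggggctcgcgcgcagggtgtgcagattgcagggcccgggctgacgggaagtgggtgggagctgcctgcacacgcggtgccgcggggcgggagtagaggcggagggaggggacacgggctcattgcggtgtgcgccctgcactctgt
HSPA1A: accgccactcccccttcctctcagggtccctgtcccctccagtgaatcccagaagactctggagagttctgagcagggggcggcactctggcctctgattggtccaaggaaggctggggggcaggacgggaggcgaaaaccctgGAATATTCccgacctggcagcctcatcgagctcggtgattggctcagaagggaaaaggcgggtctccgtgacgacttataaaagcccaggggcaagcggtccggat
DNAJA1: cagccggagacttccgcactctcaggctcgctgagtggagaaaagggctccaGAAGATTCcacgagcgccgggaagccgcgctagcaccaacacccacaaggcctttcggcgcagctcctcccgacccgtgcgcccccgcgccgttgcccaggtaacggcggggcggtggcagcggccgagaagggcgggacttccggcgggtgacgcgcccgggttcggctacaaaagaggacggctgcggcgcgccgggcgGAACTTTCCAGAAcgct
DNAJB6: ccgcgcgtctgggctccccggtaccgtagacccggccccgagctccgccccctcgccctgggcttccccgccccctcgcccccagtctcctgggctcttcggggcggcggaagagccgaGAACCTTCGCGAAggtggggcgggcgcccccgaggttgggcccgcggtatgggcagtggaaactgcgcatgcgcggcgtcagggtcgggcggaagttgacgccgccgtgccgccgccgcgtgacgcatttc

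HSPA8 held its 2 elements of 3 units at 230 and 55 bases before the start, and HSP90AB1 its 2 at 165 and 112 bases. HSP90AA1 held 1 at 88 bases, followed by a 2-unit match at 68 bases. In HSPD1 overlapping 3-unit matches formed a single run of 18 bases, and in DNAJA1 the element lay in the first transcribed bases. Windows of 250 bases before to 50 after the start were matched for 43 of the 50 genes; HSPA14, ST13, STUB1, CCT6A, HSF1, FKBP4 and BAG4 had none. A 3-unit element, searched on each strand, was in 6 of these 43, against 0.608% of all 27305 genes with a window. A 2-unit match (GAANNTTC or TTCNNGAA, each of which reads the same on the other strand, counted also inside a 3-unit match) was in 20 of 43, against 16.2% of all genes. The core ACGTG of the hypoxia response element (CACGT on the other strand) was in 15 of 43, against 24.9% of all genes. Of the 20 genes with a 2-unit match, 9 were higher and 9 lower in hypoxia in KYSE150, where 23.5% of all tested genes were higher and 38.8% lower, and 11 were higher and 6 lower in KYSE410, where 31.2% of all tested genes were higher and 51.9% lower. A match is only a run of letters, and binding was not measured.

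Values are FPKM, fragments per kilobase of transcript scaled to the library, and the depth of the libraries is unknown. A gene was called where limma on log2(FPKM + 1) gave an adjusted p (Benjamini-Hochberg) below 0.05, with the adjustment made over all genes averaging 1 FPKM or more, and a log2 change is hypoxia minus normoxia on that scale. CA9, carbonic anhydrase 9, a textbook target of low oxygen, averaged 76.8 ± 4.24 FPKM in hypoxic and 9.80 ± 0.292 FPKM in normoxic KYSE150, and 54.7 ± 4.99 FPKM in hypoxic and 4.05 ± 0.354 FPKM in normoxic KYSE410 (SD, n = 3 each). KYSE150 normoxia replicate 2 stood apart: its SD of log2 differences from the other normoxic KYSE150 libraries was 0.339 and 0.369, where other same-group pairs gave 0.153 to 0.197. The sample-sheet numbers are 53 to 55 in hypoxia and 50 to 52 in normoxia in KYSE150, and 56 to 58 in hypoxia and 38 to 40 in normoxia in KYSE410, so oxygen and sheet position cannot be told apart in either line. The 7 squamous markers were all under 1 FPKM in KYSE150, with sums of 0.242 to 0.400 FPKM in hypoxia and 0.368 to 0.549 FPKM in normoxia, while 3 of 5 epithelial markers were over 1 FPKM. In KYSE410 5 of 7 squamous markers were over 1 FPKM, with sums of 617 to 626 FPKM in hypoxia and 243 to 248 FPKM in normoxia, and 4 of 5 epithelial markers, with sums of 1050 to 1100 FPKM in hypoxia and 1910 to 2040 FPKM in normoxia. Of the leukocyte, fibroblast and endothelial markers, the genes over 1 FPKM were CD68 in both lines and COL1A1 in KYSE150. CD68 averaged 28.4 ± 1.67 FPKM in hypoxia and 16.3 ± 1.10 FPKM in normoxia in KYSE150, and 83.4 ± 2.50 FPKM in hypoxia and 31.5 ± 1.70 FPKM in normoxia in KYSE410. PTPRC, the pan-leukocyte marker, was listed at 0 in all hypoxic KYSE410 and all normoxic KYSE150 libraries. The part of these markers in the results was not tested. In bulk RNA, fewer cells of a kind and less RNA per cell cannot be told apart.

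In KYSE150, 17 of the 50 chaperone genes were higher in hypoxia, where 23.5% of all 12692 genes tested were higher. In the same line 25 were lower, where 38.8% of all genes were lower, and 8 were not called. The median log2 change was -0.15 over the chaperone genes and -0.13 over all genes. In KYSE410, 24 of 46 tested genes were higher in hypoxia, where 31.2% of all 12054 genes tested were higher, and 18 were lower, where 51.9% of all genes were lower. The median log2 change there was 0.15 over the chaperone genes and -0.21 over all genes. HSPA2, DNAJA4, DNAJB5 and BAG2 had a mean under 1 FPKM in KYSE410 and were not tested in that line. Under median-of-ratios scaling, which puts the median gene at 0.00, the split was 21 higher and 18 lower in KYSE150 and 29 higher and 12 lower in KYSE410. Of all genes, 3905 were then higher and 3815 lower of 12692 in KYSE150, and 5010 higher and 4998 lower of 12054 in KYSE410. After rescaling to a common sum the split was 22 higher and 24 lower in KYSE410, where 2746 of all genes were higher and 7503 lower.

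A called log2 change of at least 1 was found upward in 3 of 50 genes in KYSE150, where 4.49% of all genes passed it. In KYSE410 it was found in 8 of 46 tested genes, where 6.29% of all genes passed it. The 3 were HSPA8, HSPA1A and HSPA1B, and the 8 were these with HSP90AA1, HSP90AB1, HSPB1, HSPB8 and HSPE1. Downward, HSPA9 and BAG2 passed it in KYSE150, where 7.72% of all genes did, and HSPA4, HSPA9, BAG5 and FKBP5 in KYSE410, where 15.3% did. The summed level of the group was higher in hypoxia in both lines. The 50 genes held 1.26% to 1.30% of all FPKM in hypoxic and 1.07% to 1.08% in normoxic KYSE150, and 1.56% to 1.61% in hypoxic and 1.09% to 1.11% in normoxic KYSE410.

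**Figure D1:**
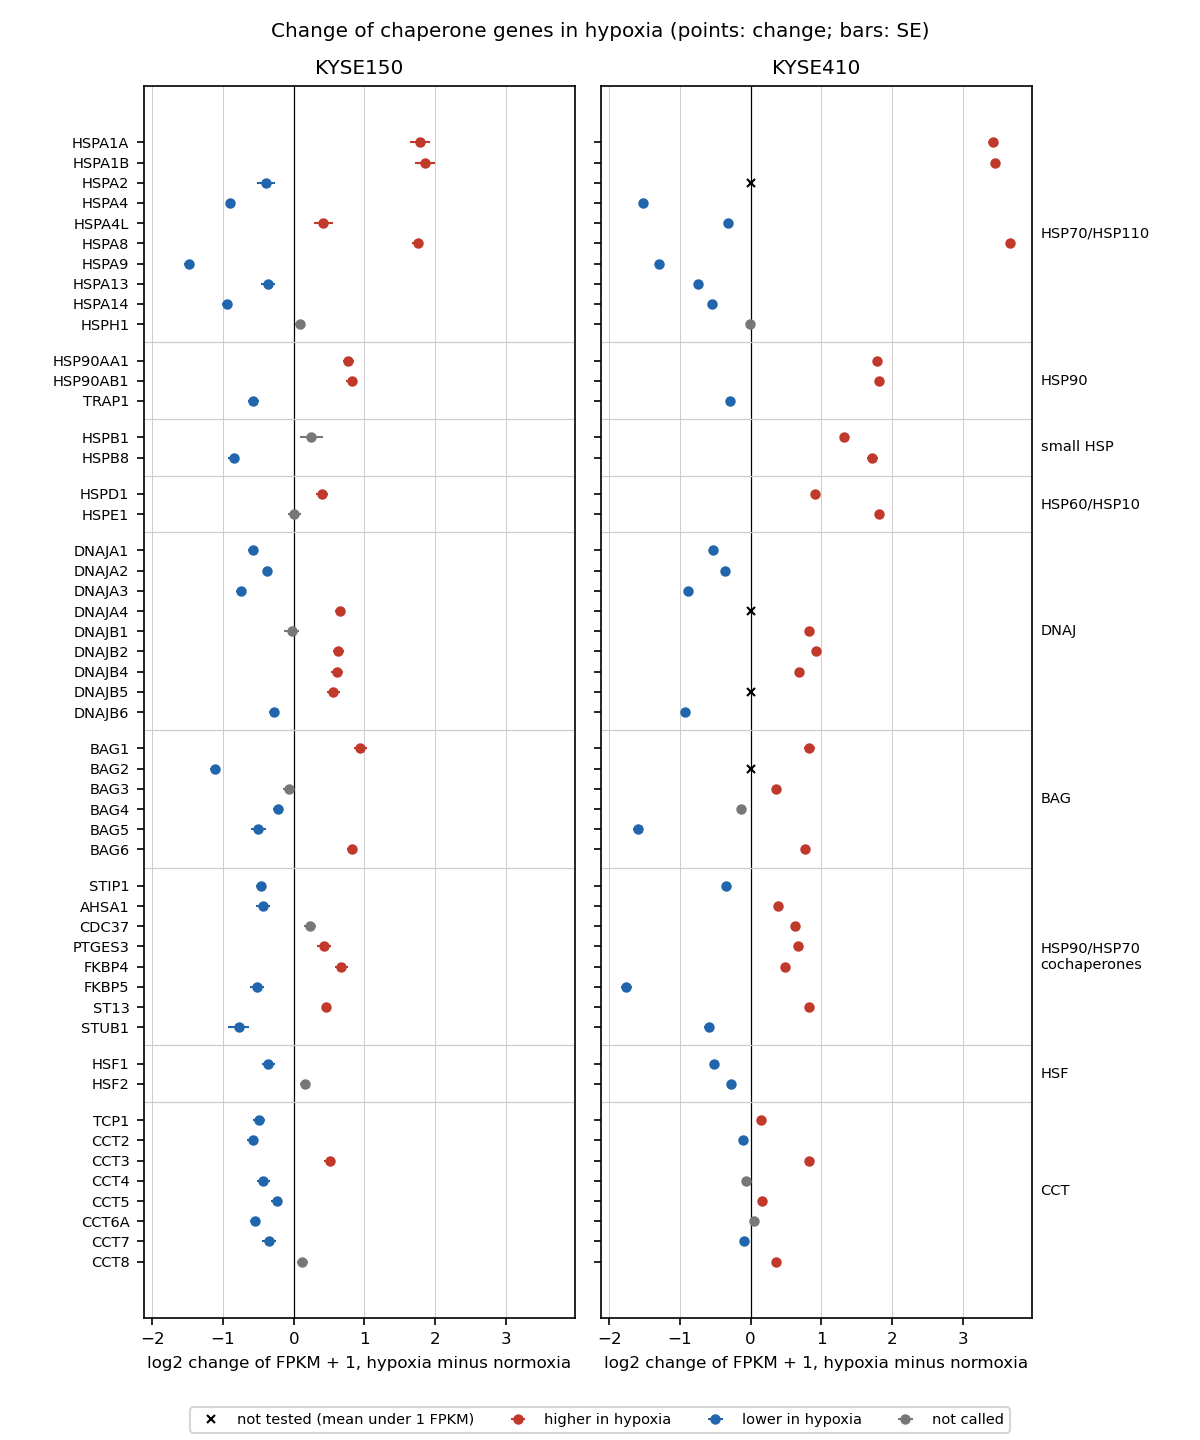
Log2 change of FPKM + 1, hypoxia minus normoxia (x axis), for the 50 chaperone genes by functional group, in KYSE150 (left panel) and KYSE410 (right panel); points are limma estimates, bars are SE, and crosses are genes not tested. HSPA8, HSPA1A and HSPA1B lie between 1.75 and 1.85 in KYSE150 and between 3.42 and 3.66 in KYSE410, above all other genes of the group in each line.

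The HSP70 genes split. The constitutive HSPA8 and the stress-inducible pair HSPA1A and HSPA1B rose in both lines, while HSPA4, HSPA9, HSPA13 and HSPA14 fell in both. HSPA8, which also uncoats clathrin vesicles and serves chaperone-mediated autophagy, had 596, 595 and 601 FPKM in hypoxic KYSE150, against 172, 186 and 171 FPKM in normoxic KYSE150. In KYSE410 it had 799, 842 and 866 FPKM in hypoxia, against 66.1, 63.6 and 66.2 FPKM in normoxia. Every hypoxic library was above every normoxic one in each line, and the hypoxic mean was 3.38 times the normoxic mean in KYSE150 and 12.8 times in KYSE410. The log2 change of HSPA8 was 1.75 ± 0.08 (SE, limma adjusted p = 1.961e-06) in KYSE150, and 3.66 ± 0.04 (adjusted p = 3.996e-10) in KYSE410, where it ranked 8 among 12054 genes. By mean FPKM, HSPA8 ranked 2 among the 50 genes in hypoxia in each line, against 8 in normoxic KYSE150 and 23 in normoxic KYSE410. Small nucleolar RNA genes lie within HSPA8 on the same strand, and 1.76% of its 75-base windows occur in other transcripts.

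HSPA1A and HSPA1B lie side by side on chromosome 6 and share much of their sequence: 71.2% of the 75-base windows of HSPA1A occur elsewhere, in HSPA1B. How reads were split between them is not known, so each value is uncertain and the sum is firmer. HSPA1A had 90.3, 95.5 and 66.2 FPKM in hypoxic KYSE150, against 22.2, 25.3 and 22.4 FPKM in normoxic KYSE150. HSPA1B had 80.7, 86.1 and 58.7 FPKM in hypoxia, against 19.2, 22.0 and 18.6 FPKM in normoxia in the same line. In both genes hypoxia replicate 3 was the lowest hypoxic library and still stood above all normoxic ones. In KYSE410 HSPA1A had 50.3, 47.6 and 51.3 FPKM in hypoxia, against 3.68, 4.24 and 3.34 FPKM in normoxia. HSPA1B had 67.1, 64.4 and 68.5 FPKM in hypoxia, against 5.12, 5.69 and 4.64 FPKM in normoxia there. The groups were apart for both genes, and the sum of the pair was 159 ± 30.1 FPKM in hypoxia and 43.2 ± 3.53 FPKM in normoxia in KYSE150, and 116 ± 3.98 FPKM in hypoxia and 8.90 ± 0.979 FPKM in normoxia in KYSE410 (SD, n = 3 each). The log2 change of HSPA1A was 1.79 ± 0.14 (adjusted p = 2.584e-05) in KYSE150 and 3.42 ± 0.07 (adjusted p = 4.555e-09) in KYSE410. That of HSPA1B was 1.85 ± 0.14 (adjusted p = 2.738e-05) in KYSE150 and 3.46 ± 0.06 (adjusted p = 3.030e-09) in KYSE410. HSPA8 stayed 3.86 ± 0.832 times the pair's sum in hypoxia and 4.09 ± 0.130 times in normoxia in KYSE150, and 7.19 ± 0.357 times in hypoxia and 7.40 ± 0.954 times in normoxia in KYSE410, within the spread of these ratios in each line.

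Of the HSP110 genes, which encode nucleotide exchange factors of HSP70, HSPA4 fell in both lines, HSPH1 was called in neither, and HSPA4L was called higher in KYSE150 and lower in KYSE410. HSPA4 had 27.1, 27.2 and 27.9 FPKM in hypoxic KYSE150, against 52.1, 53.5 and 50.4 FPKM in normoxic KYSE150. In KYSE410 HSPA4 had 26.1, 26.4 and 28.2 FPKM in hypoxia, against 78.4, 79.5 and 79.2 FPKM in normoxia. It fell by 0.90 in KYSE150 (SE 0.06, adjusted p = 1.790e-05) and by 1.52 in KYSE410 (SE 0.04, adjusted p = 9.342e-09), with the groups apart. The ratio of HSPA8 to HSPA4 was 21.8 ± 0.238 in hypoxia and 3.39 ± 0.0905 in normoxia in KYSE150, and 31.1 ± 0.718 in hypoxia and 0.826 ± 0.0231 in normoxia in KYSE410. HSPH1, often induced by heat, had 16.8, 18.0 and 17.7 FPKM in hypoxic KYSE150, against 16.3, 16.7 and 16.2 FPKM in normoxic KYSE150. In KYSE410 HSPH1 had 37.8, 41.8 and 44.9 FPKM in hypoxia, against 42.6, 41.3 and 41.2 FPKM in normoxia, and there the groups overlapped. Its log2 change was 0.09 ± 0.07 (adjusted p = 0.2907) in KYSE150 and -0.01 ± 0.06 (adjusted p = 0.8766) in KYSE410, the one gene of the 50 called in neither line. The HSPH1 result turned on the scaling. It was called higher in both lines under median-of-ratios scaling, at 0.24 in KYSE150 (adjusted p = 0.0180) and 0.23 in KYSE410 (adjusted p = 0.0051), and with the length trend removed, at 0.19 in KYSE150 (adjusted p = 0.0476) and 0.36 in KYSE410 (adjusted p = 4.914e-04). After rescaling to a common sum HSPH1 was called lower in KYSE410 (-0.25, adjusted p = 0.0031). HSPA4L, the third HSP110 gene, was higher in hypoxia in KYSE150 at 0.42 ± 0.13 (adjusted p = 0.0276) and lower in KYSE410 at -0.32 ± 0.06 (adjusted p = 0.0012). Neither call of HSPA4L held under every alternative: in KYSE150 adjusted p was 0.0946 without hypoxia replicate 2 and 0.0763 without hypoxia replicate 3, and in KYSE410 the change was 0.21 with the length trend removed.

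HSPA9, the HSP70 of the mitochondrial matrix, which pulls in imported proteins, had 96.8, 99.5 and 100.3 FPKM in hypoxic KYSE150, against 277, 280 and 278 FPKM in normoxic KYSE150. In KYSE410 it had 93.5, 98.4 and 98.5 FPKM in hypoxia, against 236, 240 and 240 FPKM in normoxia. The groups were far apart in both lines, with log2 changes of -1.48 ± 0.07 (adjusted p = 2.131e-06) in KYSE150 and -1.30 ± 0.03 (adjusted p = 8.777e-09) in KYSE410. The order of the cytosolic and mitochondrial HSP70 messages turned round. The ratio of HSPA8 to HSPA9 was 6.04 ± 0.10 in hypoxia and 0.634 ± 0.0271 in normoxia in KYSE150, and 8.63 ± 0.140 in hypoxia and 0.273 ± 0.00761 in normoxia in KYSE410 (SD, n = 3 each). HSPA14, which partners a DNAJ protein at the ribosome, fell by 0.94 in KYSE150 and by 0.55 in KYSE410, and HSPA13 fell by 0.37 in KYSE150 and by 0.74 in KYSE410, the KYSE150 call not holding under median-of-ratios scaling (-0.22, adjusted p = 0.0827). HSPA2, best known from testis, averaged 0.744 ± 0.283 FPKM in hypoxia and 1.27 ± 0.147 FPKM in normoxia in KYSE150, where its call (-0.39, adjusted p = 0.0311) did not hold under median-of-ratios scaling (adjusted p = 0.0689) nor without normoxia replicate 3, hypoxia replicate 2 or hypoxia replicate 3 (adjusted p = 0.0810, 0.1083 and 0.1088). In KYSE410 HSPA2 averaged 0.665 ± 0.0612 FPKM in hypoxia and 0.127 ± 0.0625 FPKM in normoxia. Summed over the 10 genes, HSP70 messages came to 931 ± 25.7 FPKM in hypoxia and 609 ± 12.4 FPKM in normoxia in KYSE150, and 1145 ± 41.4 FPKM in hypoxia and 477 ± 2.66 FPKM in normoxia in KYSE410.

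Both cytosolic HSP90 genes rose in both lines, and the mitochondrial one fell. HSP90AA1, the inducible form, had 367, 417 and 393 FPKM in hypoxic KYSE150, against 226, 230 and 230 FPKM in normoxic KYSE150. HSP90AA1 had 694, 725 and 747 FPKM in hypoxic KYSE410, against 209, 197 and 218 FPKM in normoxic KYSE410. HSP90AB1, the constitutive form, had 809, 807 and 822 FPKM in hypoxic KYSE150, against 454, 482 and 444 FPKM in normoxic KYSE150. No library of either gene crossed between the groups. HSP90AB1 had 875, 885 and 904 FPKM in hypoxic KYSE410, against 251, 249 and 257 FPKM in normoxic KYSE410, and had the highest mean of the 50 genes in all 4 groups. The log2 changes of HSP90AA1 and HSP90AB1 were 0.77 ± 0.08 and 0.82 ± 0.08 in KYSE150 (adjusted p = 1.065e-04 and 9.351e-05) and 1.79 ± 0.05 and 1.81 ± 0.03 in KYSE410 (adjusted p = 9.091e-09 and 1.765e-09). The ratio of HSP90AA1 to HSP90AB1 was 0.483 ± 0.0313 in hypoxia and 0.498 ± 0.0203 in normoxia in KYSE150, and 0.813 ± 0.0174 in hypoxia and 0.824 ± 0.0301 in normoxia in KYSE410, a difference smaller than the spread in each line. TRAP1, the HSP90 of the mitochondrion, had 100.9, 99.7 and 99.1 FPKM in hypoxic KYSE150, against 143, 162 and 142 FPKM in normoxic KYSE150. TRAP1 had 68.4, 66.5 and 67.4 FPKM in hypoxic KYSE410, against 80.5, 86.6 and 80.5 FPKM in normoxic KYSE410. It fell by 0.57 (SE 0.08, adjusted p = 4.103e-04) in KYSE150 and by 0.29 (SE 0.04, adjusted p = 1.233e-04) in KYSE410, where the call did not hold under median-of-ratios scaling (-0.04, adjusted p = 0.3073).

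**Figure D2:**
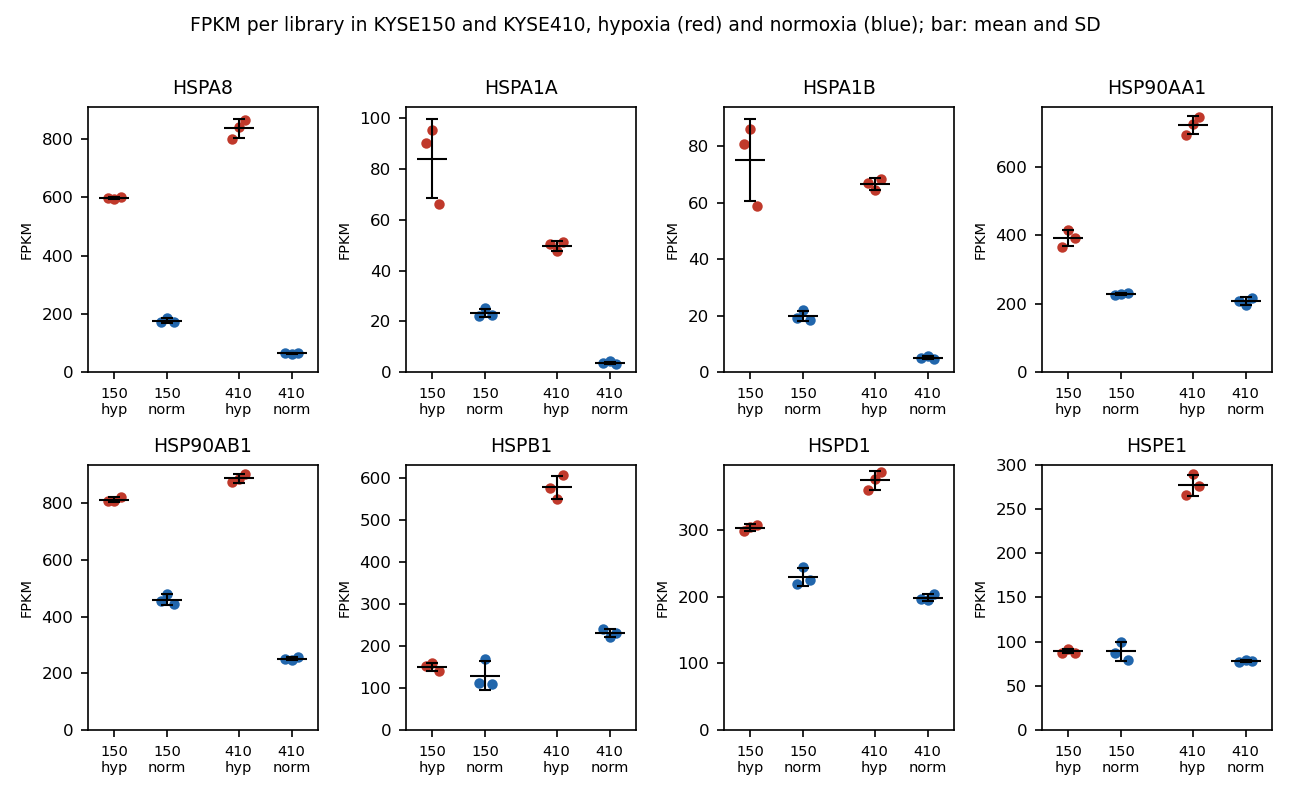
FPKM (y axis, from 0) of 8 chaperone genes in every library, by line and oxygen level (x axis, hypoxia left of normoxia); points are libraries, and bars are the mean and SD of 3. HSPA8 averages 836 FPKM in hypoxic and 65.3 FPKM in normoxic KYSE410, while HSPE1 averages 89.0 FPKM in hypoxic and 88.9 FPKM in normoxic KYSE150.

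Among the small heat shock proteins, which hold unfolded proteins without ATP, both genes were called higher in KYSE410 and neither was in KYSE150. Over all tested genes 31.2% were higher in KYSE410 and 23.5% in KYSE150. HSPB1 had 575, 550 and 606 FPKM in hypoxic KYSE410, against 240, 221 and 231 FPKM in normoxic KYSE410, with a log2 change of 1.32 ± 0.05 (adjusted p = 3.707e-08). In KYSE150 HSPB1 had 153, 159 and 140 FPKM in hypoxia, against 111, 168 and 108 FPKM in normoxia. The highest value there was normoxia replicate 2, the library that stood apart, and the change was 0.25 ± 0.16 (adjusted p = 0.2218). Without that library the change of HSPB1 in KYSE150 was 0.45 and passed the test (adjusted p = 1.262e-04). HSPB8, which works with BAG3 in clearing aggregated proteins, had 6.01, 6.07 and 5.34 FPKM in hypoxic KYSE150, against 11.5, 11.5 and 10.7 FPKM in normoxic KYSE150. In KYSE410 HSPB8 had 16.8, 16.8 and 18.6 FPKM in hypoxia, against 4.18, 5.26 and 4.40 FPKM in normoxia. The groups were apart in both lines in opposite directions, at -0.85 ± 0.08 (adjusted p = 7.241e-05) in KYSE150 and 1.72 ± 0.08 (adjusted p = 1.669e-07) in KYSE410.

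HSPD1 and HSPE1 encode the HSP60 barrel of the mitochondrion and its HSP10 lid, and lie head to head on chromosome 2, where their annotated spans overlap on opposite strands. HSPD1 had 299, 305 and 308.5 FPKM in hypoxic KYSE150, against 219, 245 and 226 FPKM in normoxic KYSE150. In KYSE410 HSPD1 had 361, 377 and 388 FPKM in hypoxia, against 196, 196 and 205 FPKM in normoxia. It was higher in both lines, at 0.40 ± 0.08 (adjusted p = 0.0025) in KYSE150 and 0.91 ± 0.04 (adjusted p = 7.787e-08) in KYSE410. HSPE1 had 87.5, 91.7 and 87.7 FPKM in hypoxic KYSE150, against 87.3, 100.03 and 79.3 FPKM in normoxic KYSE150, and the groups overlapped (0.01 ± 0.09, adjusted p = 0.9498). In KYSE410 HSPE1 had 265, 290 and 276 FPKM in hypoxia, against 77.5, 79.6 and 78.1 FPKM in normoxia, a log2 change of 1.81 ± 0.04 (adjusted p = 4.640e-09). The ratio of HSPD1 to HSPE1 therefore moved in opposite ways, to 3.42 ± 0.0947 in hypoxia against 2.60 ± 0.216 in normoxia in KYSE150, and to 1.36 ± 0.0543 in hypoxia against 2.54 ± 0.0777 in normoxia in KYSE410. Of the 75-base windows of HSPE1, 22.3% occur in other transcripts, mainly the readthrough HSPE1-MOB4, and the strand setting of the counting is not given, so both values carry that uncertainty. In both lines DNAJA3, TRAP1 and HSPA9 were lower while HSPD1 was higher, and the summed FPKM of the 5 mitochondrial genes was 636 ± 7.18 in hypoxia and 820 ± 33.5 in normoxia in KYSE150, and 844 ± 24.8 in hypoxia and 650 ± 8.12 in normoxia in KYSE410.

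The DNAJ genes, whose proteins deliver substrates to HSP70, were divided by direction, with 4 higher and 4 lower of 9 in KYSE150 and 3 higher and 4 lower of 7 tested in KYSE410. Of all tested genes 23.5% were higher and 38.8% lower in KYSE150, and 31.2% higher and 51.9% lower in KYSE410, so these few genes show no clear departure. DNAJA1, DNAJA2, DNAJA3 and DNAJB6 were lower in both lines, and DNAJB2 and DNAJB4 were higher in both. DNAJA3 had 43.2, 42.8 and 44.9 FPKM in hypoxic KYSE150, against 75.4, 72.1 and 74.4 FPKM in normoxic KYSE150. It had 27.3, 25.8 and 29.4 FPKM in hypoxic KYSE410, against 50.3, 52.9 and 51.2 FPKM in normoxic KYSE410. DNAJA3 fell by 0.75 (SE 0.06, adjusted p = 4.306e-05) in KYSE150 and by 0.88 (SE 0.05, adjusted p = 5.772e-07) in KYSE410. DNAJB6, known as a suppressor of protein aggregation, had 33.0, 31.4 and 32.8 FPKM in hypoxic KYSE150, against 38.3, 42.5 and 38.2 FPKM in normoxic KYSE150. In KYSE410 it had 53.4, 53.3 and 53.99 FPKM in hypoxia, against 103.5, 99.9 and 106 FPKM in normoxia. Its libraries did not overlap between the oxygen levels, and it fell by 0.28 (SE 0.07, adjusted p = 0.01) in KYSE150 and by 0.93 (SE 0.03, adjusted p = 4.568e-08) in KYSE410. In KYSE150 that call did not hold under median-of-ratios scaling (-0.13, adjusted p = 0.1540) or without hypoxia replicate 2 (adjusted p = 0.0502).

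DNAJB1, the heat-inducible HSP40, had 42.0, 40.5 and 32.6 FPKM in hypoxic KYSE150, against 35.9, 43.4 and 37.9 FPKM in normoxic KYSE150. These values overlapped (-0.03 ± 0.11, adjusted p = 0.8432). In KYSE410 DNAJB1 had 59.2, 54.4 and 61.3 FPKM in hypoxia, against 31.4, 33.7 and 31.8 FPKM in normoxia, a log2 change of 0.83 ± 0.05 (adjusted p = 9.069e-07). DNAJB2, which binds ubiquitinated proteins, had 17.1, 16.2 and 15.4 FPKM in hypoxic KYSE150, against 9.58, 10.8 and 10.1 FPKM in normoxic KYSE150. It had 28.96, 28.7 and 31.8 FPKM in hypoxic KYSE410, against 15.2, 16.4 and 13.9 FPKM in normoxic KYSE410. DNAJB2 changed by 0.63 ± 0.08 (adjusted p = 2.791e-04) in KYSE150 and 0.93 ± 0.07 (adjusted p = 2.096e-06) in KYSE410. DNAJA4 had 13.8, 13.2 and 13.2 FPKM in hypoxic KYSE150, against 8.28, 7.73 and 8.52 FPKM in normoxic KYSE150, and rose by 0.65 ± 0.07 (adjusted p = 1.536e-04), while in KYSE410 it reached at most 0.04 FPKM in any library. DNAJB5 averaged 2.41 ± 0.231 FPKM in hypoxia and 1.31 ± 0.0894 FPKM in normoxia in KYSE150, and 0.476 ± 0.0478 FPKM in hypoxia and 1.40 ± 0.154 FPKM in normoxia in KYSE410. DNAJA1 and DNAJA2, the broadly expressed cytosolic partners of HSPA8, fell by 0.58 and 0.38 in KYSE150 and by 0.53 and 0.37 in KYSE410, and DNAJB4 rose by 0.61 in KYSE150 and by 0.69 in KYSE410.

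BAG1 and BAG6 rose in both lines, and BAG5 fell in both. BAG1, a nucleotide exchange factor that ties HSP70 to the proteasome, had 38.4, 38.9 and 39.1 FPKM in hypoxic KYSE150, against 18.5, 22.7 and 18.3 FPKM in normoxic KYSE150. In KYSE410 BAG1 had 9.79, 10.8 and 11.2 FPKM in hypoxia, against 6.11, 5.49 and 4.94 FPKM in normoxia. The groups were apart, with log2 changes of 0.94 ± 0.09 (adjusted p = 8.328e-05) in KYSE150 and 0.83 ± 0.08 (adjusted p = 1.290e-05) in KYSE410. BAG6, which sorts membrane proteins that fail to reach their membrane, had 67.2, 63.2 and 61.7 FPKM in hypoxic KYSE150, against 36.0, 34.6 and 36.7 FPKM in normoxic KYSE150. It had 56.5, 51.7 and 57.2 FPKM in hypoxic KYSE410, against 32.3, 31.1 and 32.1 FPKM in normoxic KYSE410. BAG6 rose by 0.82 ± 0.07 (adjusted p = 3.657e-05) in KYSE150 and 0.77 ± 0.05 (adjusted p = 6.788e-07) in KYSE410, close values between the lines. BAG5, another exchange factor, had 12.2, 11.5 and 12.6 FPKM in hypoxic KYSE150, against 18.2, 15.0 and 19.6 FPKM in normoxic KYSE150. In KYSE410 BAG5 had 5.42, 5.08 and 5.92 FPKM in hypoxia, against 18.2, 18.3 and 19.2 FPKM in normoxia. It fell by 0.50 (SE 0.11, adjusted p = 0.0041) in KYSE150 and by 1.60 (SE 0.06, adjusted p = 4.721e-08) in KYSE410.

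BAG2, an inhibitor of the ubiquitin ligase STUB1, had 6.30, 6.54 and 6.58 FPKM in hypoxic KYSE150, against 15.5, 15.1 and 15.0 FPKM in normoxic KYSE150. It fell by 1.12 (SE 0.07, adjusted p = 8.984e-06), the groups being far apart, and its level was at most 0.09 FPKM in any KYSE410 library. BAG3, the stress-inducible partner of HSPB8, had 9.72, 10.3 and 8.85 FPKM in hypoxic KYSE150, against 10.7, 9.80 and 9.86 FPKM in normoxic KYSE150. Those values overlapped (-0.07 ± 0.08, adjusted p = 0.5079). BAG3 had 28.8, 25.6 and 27.5 FPKM in hypoxic KYSE410, against 20.9, 21.3 and 21.0 FPKM in normoxic KYSE410, and was higher by 0.36 ± 0.05 (adjusted p = 1.321e-04). BAG4 was lower in KYSE150 at -0.22 ± 0.07 (adjusted p = 0.0313), a call that was lost without any single library except normoxia replicate 2 (adjusted p = 0.0530 to 0.1158), and changed by -0.14 ± 0.06 in KYSE410 (adjusted p = 0.0532), where it passed the test without normoxia replicate 3 (-0.17, adjusted p = 0.0342).

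The other cochaperones of HSP90 and HSP70 moved in both directions, with 3 higher and 4 lower of 8 in KYSE150 and 5 higher and 3 lower in KYSE410. The shares over all tested genes were 23.5% higher and 38.8% lower in KYSE150, and 31.2% higher and 51.9% lower in KYSE410. FKBP4 and FKBP5 encode immunophilins that act in opposite ways on steroid receptors held by HSP90, and they moved in opposite ways in both lines. FKBP4 had 40.8, 38.7 and 39.8 FPKM in hypoxic KYSE150, against 23.9, 28.0 and 22.4 FPKM in normoxic KYSE150. It had 68.0, 69.3 and 69.6 FPKM in hypoxic KYSE410, against 49.6, 48.9 and 48.4 FPKM in normoxic KYSE410. FKBP4 rose by 0.67 ± 0.09 (adjusted p = 4.276e-04) in KYSE150 and 0.49 ± 0.03 (adjusted p = 9.940e-07) in KYSE410. FKBP5 had 11.6, 11.0 and 10.5 FPKM in hypoxic KYSE150, against 17.1, 13.98 and 17.9 FPKM in normoxic KYSE150. In KYSE410 FKBP5 had 2.01, 2.53 and 2.37 FPKM in hypoxia, against 9.18, 10.4 and 10.9 FPKM in normoxia. The libraries did not overlap, and it fell by 0.52 (SE 0.10, adjusted p = 0.0028) in KYSE150 and by 1.76 (SE 0.08, adjusted p = 1.901e-07) in KYSE410.

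STUB1, the ubiquitin ligase that marks chaperone-bound proteins for breakdown, had 32.9, 29.9 and 33.4 FPKM in hypoxic KYSE150, against 50.5, 72.3 and 47.2 FPKM in normoxic KYSE150. In KYSE410 it had 46.9, 45.3 and 39.5 FPKM in hypoxia, against 69.7, 68.2 and 62.0 FPKM in normoxia. All hypoxic libraries were below all normoxic ones, with a fall of 0.78 (SE 0.15, adjusted p = 0.0027) in KYSE150 and of 0.59 (SE 0.07, adjusted p = 5.572e-05) in KYSE410. STUB1 overlaps JMJD8 on the other strand, so without the strand setting reads in the shared stretch cannot be told apart. The same limit holds for other genes here, among them HSF1 with DGAT1, BAG5 with KLC1, BAG6 with APOM, DNAJB1 with TECR, TCP1 with ACAT2 and AHSA1 with VIPAS39. ST13, which stabilises HSP70 in its bound state, had 66.0, 66.3 and 69.9 FPKM in hypoxic KYSE410, against 37.0, 38.6 and 37.4 FPKM in normoxic KYSE410, and rose by 0.82 ± 0.04 (adjusted p = 1.404e-07), beside 0.46 ± 0.06 (adjusted p = 5.081e-04) in KYSE150. Processed copies make ST13 uncertain, since 22.9% of its 75-base windows occur in other transcripts. PTGES3, the p23 protein of late HSP90 complexes, had 222, 220 and 231 FPKM in hypoxic KYSE410, against 132, 138 and 154 FPKM in normoxic KYSE410. It rose by 0.67 ± 0.06 (adjusted p = 6.202e-06) in KYSE410 and by 0.43 ± 0.10 (adjusted p = 0.0059) in KYSE150. STIP1, which bridges HSP70 and HSP90, fell by 0.47 in KYSE150 and by 0.35 in KYSE410, where its call did not hold under median-of-ratios scaling (-0.10, adjusted p = 0.0685). AHSA1, which stimulates the ATPase of HSP90, averaged 34.7 ± 1.5 FPKM in hypoxia and 47.2 ± 6.38 FPKM in normoxia in KYSE150, and 167 ± 6.87 FPKM in hypoxia and 127 ± 1.76 FPKM in normoxia in KYSE410, with log2 changes of -0.43 (adjusted p = 0.0069) and 0.39 (adjusted p = 1.219e-05). CDC37, which brings kinases to HSP90, was higher in KYSE410 at 0.63 ± 0.03 (adjusted p = 1.777e-07) and changed by 0.23 ± 0.09 (adjusted p = 0.0617) in KYSE150, where it passed the test without normoxia replicate 2 (0.32, adjusted p = 2.931e-04).

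**Figure D3:**
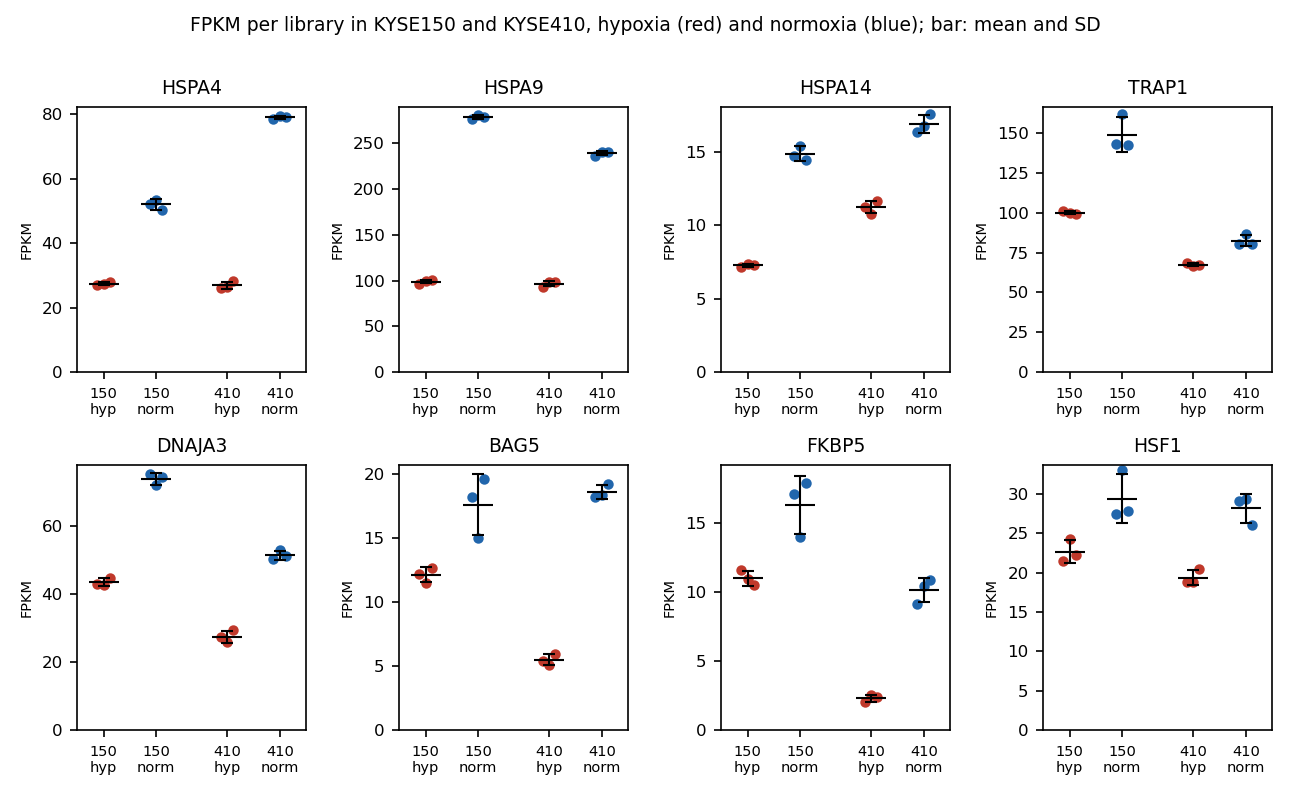
FPKM (y axis, from 0) of 8 chaperone genes that were lower in hypoxia in both lines, in every library, by line and oxygen level (x axis, hypoxia left of normoxia); points are libraries, and bars are the mean and SD of 3. HSPA9 averages 98.9 FPKM in hypoxic and 278 FPKM in normoxic KYSE150, and FKBP5 2.30 FPKM in hypoxic and 10.2 FPKM in normoxic KYSE410.

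The message of HSF1 fell in both lines. HSF1 had 21.5, 24.4 and 22.3 FPKM in hypoxic KYSE150, against 27.4, 33.0 and 27.8 FPKM in normoxic KYSE150. In KYSE410 it had 18.9, 18.9 and 20.4 FPKM in hypoxia, against 29.1, 29.4 and 26.0 FPKM in normoxia. The libraries did not overlap, and the fall was 0.36 (SE 0.09, adjusted p = 0.0110) in KYSE150 and 0.52 (SE 0.06, adjusted p = 3.750e-05) in KYSE410. The KYSE150 call did not hold under median-of-ratios scaling (-0.21, adjusted p = 0.0968). HSF2, a second factor of the family, had 7.63, 8.52 and 7.88 FPKM in hypoxic KYSE410, against 9.45, 10.4 and 9.97 FPKM in normoxic KYSE410, and was lower by 0.28 (SE 0.06, adjusted p = 0.0018), a call that did not hold under median-of-ratios scaling (-0.06, adjusted p = 0.3716). In KYSE150 HSF2 averaged 8.59 ± 0.260 FPKM in hypoxia and 7.55 ± 0.235 FPKM in normoxia (adjusted p = 0.0808), and its change of 0.16 was not called. It passed the test as higher in hypoxia without normoxia replicate 2 (0.17, adjusted p = 0.0330), under median-of-ratios scaling (0.31, adjusted p = 0.0080) and with the length trend removed (0.33, adjusted p = 0.0022). HSF1 activity depends on the state of the protein, which was not measured.

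The 8 CCT genes encode the subunits of 1 ring, and they did not move as 1 unit. In KYSE150 CCT3 was higher, TCP1, CCT2, CCT4, CCT5, CCT6A and CCT7 were lower, and CCT8 was not called. In KYSE410 TCP1, CCT3, CCT5 and CCT8 were higher and CCT2 and CCT7 lower, by small amounts except in CCT3 and CCT8. Among all tested genes 23.5% were higher and 38.8% lower in KYSE150, and 31.2% higher and 51.9% lower in KYSE410. Under median-of-ratios scaling all 8 were higher in KYSE410, and after rescaling to a common sum 2 were higher and 6 lower, so the direction of the group in that line rests on the scaling. Under the same scalings KYSE150 kept more subunits lower than higher, with 2 higher and 4 lower under the first and 1 higher and 6 lower under the second. Of all 12054 genes in KYSE410, 5010 were higher and 4998 lower under the first, and 2746 and 7503 under the second. Of all 12692 in KYSE150, 3905 were higher and 3815 lower under the first, and 2970 and 4746 under the second.

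CCT3 had the largest rise among the subunits in each line. It had 173, 170 and 168 FPKM in hypoxic KYSE150, against 110, 132 and 117 FPKM in normoxic KYSE150. In KYSE410 CCT3 had 115, 122 and 126 FPKM in hypoxia, against 67.9, 66.2 and 70.7 FPKM in normoxia. The groups were apart, with log2 changes of 0.51 ± 0.08 (adjusted p = 0.0012) in KYSE150 and 0.82 ± 0.04 (adjusted p = 3.507e-07) in KYSE410. TCP1, the alpha subunit, had 70.5, 70.7 and 69.4 FPKM in hypoxic KYSE150, against 95.6, 109 and 93.9 FPKM in normoxic KYSE150, and fell by 0.49 (SE 0.08, adjusted p = 9.704e-04). In KYSE410 TCP1 had 131, 134 and 137 FPKM in hypoxia, against 120, 124 and 120 FPKM in normoxia, and was higher by 0.14 ± 0.03 (adjusted p = 0.0033). CCT2 had 99.7, 101 and 102 FPKM in hypoxic KYSE150, against 146, 165 and 145 FPKM in normoxic KYSE150, a log2 change of -0.58 ± 0.08 (adjusted p = 4.008e-04). CCT6A had 99.1, 101 and 104 FPKM in hypoxic KYSE150, against 152, 154 and 142 FPKM in normoxic KYSE150, a change of -0.55 ± 0.07 (adjusted p = 3.024e-04). These were the largest falls among the subunits in KYSE150. The smaller falls were less firm: in KYSE150 the call of CCT5 (-0.24) was lost without any one of the 3 hypoxic libraries (adjusted p = 0.1046, 0.1038 and 0.1006) and that of CCT7 (-0.35) without hypoxia replicate 1 or 2 (adjusted p = 0.0513 and 0.0530). In KYSE410 the call of CCT2 (-0.11) was lost without hypoxia replicate 1 or 2 (adjusted p = 0.0559 and 0.0589), and that of CCT7 (-0.10) without these or normoxia replicate 3 (adjusted p = 0.0552, 0.0511 and 0.0539). CCT8 passed the test in KYSE150 without normoxia replicate 2 (0.18, adjusted p = 0.0012). CCT8 had 256, 261 and 257 FPKM in hypoxic KYSE410, against 194, 202 and 206 FPKM in normoxic KYSE410, and rose by 0.36 ± 0.03 (adjusted p = 8.030e-06). CCT5 had 146, 147 and 156 FPKM in hypoxic KYSE410, against 130, 134 and 136 FPKM in normoxic KYSE410, and was higher by 0.16 ± 0.04 (adjusted p = 0.0030). The summed FPKM of the 8 genes was 1107 ± 8.87 in hypoxia and 1279 ± 104 in normoxia in KYSE150, and 1471 ± 39.9 in hypoxia and 1365 ± 19.0 in normoxia in KYSE410. In KYSE150 normoxia, replicate 2 was the highest library for all 8 subunits, which widened the spread of that group.

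**Figure D4:**
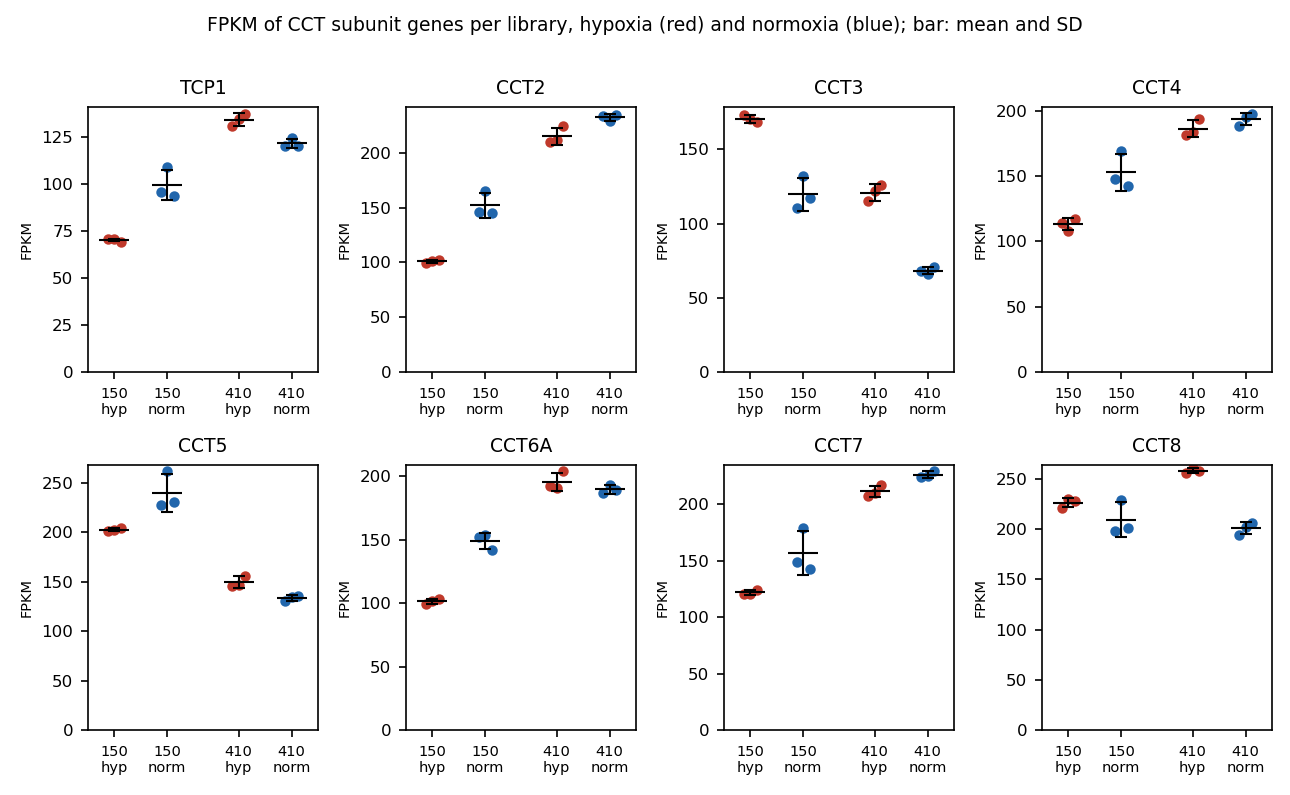
FPKM (y axis, from 0) of the 8 CCT subunit genes in every library, by line and oxygen level (x axis, hypoxia left of normoxia); points are libraries, and bars are the mean and SD of 3. CCT3 is higher in hypoxia in both lines, at 171 FPKM in hypoxic and 120 FPKM in normoxic KYSE150 and at 121 FPKM in hypoxic and 68.3 FPKM in normoxic KYSE410.

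The lines were next compared in their response, as the log2 change in KYSE410 minus that in KYSE150, in 1 limma fit of all 12 libraries over 13421 genes. Sheet numbers run on from normoxia to hypoxia in KYSE150 and lie apart in KYSE410. A difference in response between the lines and this gap cannot be told apart. A stronger upward or weaker downward response in KYSE410 was called for 28 of the 50 genes, where 27.3% of all genes had one, and the opposite for 9, where 35.4% of all genes had it. HSPA2 and BAG2 among the 28, and DNAJA4 and DNAJB5 among the 9, averaged under 1 FPKM in KYSE410. They entered the fit through their level in KYSE150. The median difference was 0.27 over the chaperone genes and -0.08 over all genes. After rescaling to a common sum the split was 17 higher and 17 lower, where 2527 of all 13421 genes were higher and 6225 lower. The median difference was then 0.02 over the chaperone genes and -0.28 over all genes. The split itself rests on the scaling. The chaperone median stayed above that of all genes, but rescaling shifts all genes of a library together and could hardly change that order. The 3 HSP90 genes, both small heat shock protein genes, HSPD1 with HSPE1, and all 8 CCT genes had a higher response in KYSE410. After rescaling to a common sum 2 of the 3 HSP90 genes and 4 of the 8 CCT genes still passed the test, none of either group on the lower side.

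HSPB8 differed most between the lines, by 2.56 ± 0.11 (SE, adjusted p = 1.432e-08), followed by HSPA8 at 1.90 ± 0.08 (adjusted p = 7.874e-09) and HSPE1 at 1.80 ± 0.10 (adjusted p = 8.113e-08). HSPA1A differed by 1.63 ± 0.17 (adjusted p = 7.277e-06) and HSPA1B by 1.61 ± 0.17 (adjusted p = 9.284e-06). In these 5 genes the response was the higher one in KYSE410 under every alternative run. BAG2 differed by 1.10 ± 0.08 (adjusted p = 5.369e-07), which rests on its fall in KYSE150, since it was near 0 in KYSE410. On the other side, DNAJB5 differed by -1.26 ± 0.10 (adjusted p = 1.323e-06), FKBP5 by -1.23 ± 0.14 (adjusted p = 1.269e-05) and BAG5 by -1.10 ± 0.12 (adjusted p = 1.387e-05). For FKBP5 and BAG5 this was a larger fall in KYSE410. DNAJB5 was low there, at 0.476 FPKM in hypoxia and 1.40 FPKM in normoxia, and was not tested in that line, so its difference is less firm. HSPA4L differed by -0.73 ± 0.15 (adjusted p = 0.0013), DNAJB6 by -0.65 ± 0.07 (adjusted p = 1.514e-05) and DNAJA4 by -0.65 ± 0.08 (adjusted p = 4.517e-05), the last resting on KYSE150, and the call of DNAJB6 was lost with the length trend removed (-0.27, adjusted p = 0.1130). BAG1, BAG4, BAG6, DNAJA1, DNAJA2, DNAJA3, DNAJB4, FKBP4, STIP1, STUB1, PTGES3, HSF1 and HSPH1 showed no called difference. For BAG6 the difference was -0.05 ± 0.08 and for DNAJA2 it was 0.01 ± 0.07.

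Across the lines 14 genes were called higher in both, 16 lower in both, 4 lower in KYSE150 and higher in KYSE410 (HSPB8, AHSA1, TCP1 and CCT5) and 1 the other way (HSPA4L), of 46 tested in both lines. Of the 10951 genes of any kind tested in both lines, 13.8% were called higher in both, 29.4% lower in both, 4.94% lower in KYSE150 and higher in KYSE410, and 5.37% the other way. The 14 were HSPA1A, HSPA1B, HSPA8, HSP90AA1, HSP90AB1, HSPD1, DNAJB2, DNAJB4, BAG1, BAG6, PTGES3, FKBP4, ST13 and CCT3. The 16 were HSPA4, HSPA9, HSPA13, HSPA14, TRAP1, DNAJA1, DNAJA2, DNAJA3, DNAJB6, BAG5, STIP1, FKBP5, STUB1, HSF1, CCT2 and CCT7. HSPB1, HSPE1, DNAJB1, BAG3, CDC37 and CCT8 were called higher in KYSE410 and not in KYSE150. Each of these 6 had a called higher response in KYSE410. Of all genes 27.3% had a higher and 35.4% a lower one. The 6 were picked by their calls in the same libraries, so these shares are no measure for them. After rescaling to a common sum the DNAJ genes went from 2 higher and 3 lower differences to 1 and 6. The BAG genes went from 2 and 1 to 1 and 3, and the other cochaperones from 3 and 1 to 1 and 2. The HSP70 genes went from 6 and 3 to 4 and 4, the HSF genes from 0 and 1 to 0 and 2. The CCT genes went from 8 and 0 to 4 and 0. Of all 13421 genes, 2527 then had a higher response in KYSE410 and 6225 a lower one. Calls of differences in these groups thus rest in part on the scaling.

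Chaperones outside the 50 genes were set beside them from lists of known members. Of 53 other cytosolic chaperone and cochaperone genes, 7 were higher and 10 lower of 40 tested in KYSE150, and 17 higher and 14 lower of 38 in KYSE410. Over all tested genes the shares were 23.5% higher and 38.8% lower in KYSE150, and 31.2% higher and 51.9% lower in KYSE410. Among them TXNDC9, a regulator of CCT, averaged 15.4 ± 1.03 FPKM in hypoxia and 38.9 ± 4.51 FPKM in normoxia in KYSE150, and 9.56 ± 1.22 FPKM in hypoxia and 41.0 ± 1.15 FPKM in normoxia in KYSE410 (log2 change -1.28 and -2.00). HSF4 rose by 1.00 ± 0.09 in KYSE150, and HSBP1, which binds HSF1, rose by 1.18 ± 0.06 in KYSE410. Of 9 prefoldin and prefoldin-like genes, 1 was higher and 2 lower of 8 tested in KYSE150, and 3 higher and 3 lower of 8 in KYSE410. PFDN2 and PFDN5 encode parts of prefoldin, the complex that hands new actin and tubulin to CCT. PFDN2 fell by 1.09 and 0.90 in KYSE150 and KYSE410, while PFDN5 rose by 0.46 and 1.05. Of the prefoldin-like genes, URI1 fell by 1.38 in KYSE150 and UXT rose by 0.77 in KYSE410.

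Of 16 other mitochondrial chaperone and protease genes, 12 of 16 tested were lower and 4 not called in KYSE150, and 13 of 15 were lower and 1 higher in KYSE410, against 38.8% of all tested genes lower in KYSE150 and 51.9% in KYSE410. Of the 5 mitochondrial genes among the 50, HSPA9, TRAP1 and DNAJA3 were lower in both lines, HSPD1 was higher in both, and HSPE1 was higher in KYSE410 (1.81) and not called in KYSE150. GRPEL2, an exchange factor of HSPA9, averaged 9.21 ± 0.502 FPKM in hypoxia and 23.9 ± 1.53 FPKM in normoxia in KYSE150, and 9.72 ± 0.513 FPKM in hypoxia and 38.1 ± 1.01 FPKM in normoxia in KYSE410. TIMM44, which docks HSPA9 at the import channel, averaged 11.7 ± 0.769 FPKM in hypoxia and 30.5 ± 2.71 FPKM in normoxia in KYSE150, and 12.4 ± 1.00 FPKM in hypoxia and 46.8 ± 2.22 FPKM in normoxia in KYSE410. The log2 changes of GRPEL2 and TIMM44 were -1.28 and -1.30 in KYSE150 and -1.87 and -1.84 in KYSE410. GRPEL1, the main exchange factor of HSPA9, fell by 1.20 in KYSE410, and DNAJC30 fell by 0.96 in KYSE150. Of 20 ER chaperone genes, 2 were higher and 9 lower of 19 tested in KYSE150, and 15 higher and 3 lower of 20 in KYSE410, against 23.5% higher and 38.8% lower of all tested genes in KYSE150 and 31.2% higher and 51.9% lower in KYSE410. ERO1A, an oxidase of the ER and a textbook hypoxia target, rose in both lines, by 1.44 ± 0.07 in KYSE150 and 1.84 ± 0.03 in KYSE410. MANF and HYOU1, the HSP110-like chaperone of the ER, fell by 1.59 and 1.15 in KYSE150, and CALR and P4HB rose by 1.64 and 1.54 in KYSE410.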

How the data were processed

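RNA of 12 libraries was taken with TRIzol and enriched on mRNA capture beads, per the labels' protocols. Named in the submitters' processing notes, without roles, are HISAT2 2.2.1, fastp 0.22.0, bcl2fastq 2.20 and the build hg38. Quantifier, gene annotation and strandedness are not stated there. The authors deposited 1 table per line, with values read here as FPKM from their sums (351501 to 425094 per library) and transcript lengths. In KYSE410 the sums were 415926 to 425094 in hypoxia and 351501 to 356994 in normoxia, and the unscaled changes in that line include this difference. In KYSE150 they were 377909 to 382990 in hypoxia, and 370573, 413967 and 366156 in normoxia replicates 1, 2 and 3. Low values showed no whole-read steps (at most 2.26% of ratios in one window of 0.02 on the log2 scale), so depth is unknown and no count test was run.

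Each table was fitted with limma 3.58.1 in R 4.3.3, using empirical Bayes moderation and a mean trend, on log2(FPKM + 1) of the genes that averaged 1 FPKM or more. A fold change on this scale understates the change of low genes. Differences in response came from a joint fit of genes in both tables that averaged 1 FPKM or more in at least 1 line. Levels were not tested across lines, because the tables were deposited separately. Transcript lengths, overlaps and shared 75-base windows came from GENCODE 29 on hg38, and promoter windows from RefSeq. Tables and plots were made with Python 3.11.15, pandas 2.3.3, numpy 2.4.6 and matplotlib 3.10.9.

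The 50 genes and the comparison lists were chosen with earlier results of these data known. Library values are printed for up to 3 called genes with the largest change per functional group and line and for 16 genes named in the rule, differences in response for the 6 largest each way, and up to 3 called genes per comparison list and line; HSPA4, HSPA9 and further values were added after they were seen. A gene that the rule takes is not reported here. Alternatives changed the scaling, the pseudocount (0.1), the filter, the threshold (0.01), the mean trend, the replicate block, the length trend and each library.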

Additional observations from a re-analysis of the deposited data

Results flagged for a closer look

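The difference in response between the lines, KYSE410 change minus KYSE150 change in the joint limma fit, passed the test for the following genes, which is what singled them out. It was higher in KYSE410 for HSPB8 (2.56), HSPA8 (1.90), HSPE1 (1.80), HSPA1A (1.63), HSPA1B (1.61) and BAG2 (1.10). It was lower in KYSE410 for DNAJB5 (-1.26), FKBP5 (-1.23), BAG5 (-1.10), HSPA4L (-0.73), DNAJB6 (-0.65) and DNAJA4 (-0.65). HSPB8 and HSPA4L were called in opposite directions in the lines. BAG2 and DNAJA4 were near 0 FPKM in KYSE410, so their differences rest on KYSE150. DNAJB5 averaged under 1 FPKM in KYSE410 and was not tested in that line.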

How the results depend on the processing

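The counts of higher and lower genes within each line stayed within 1.5 times under each alternative. Leaving out single libraries gave 16 to 21 higher and 20 to 25 lower in KYSE150, 24 higher and 16 to 18 lower in KYSE410, and 25 to 29 higher and 9 to 11 lower for the difference in response. Over all genes the same fits gave 2474 to 3626 higher and 4131 to 5809 lower in KYSE150. They gave 3579 to 3725 higher and 6069 to 6162 lower in KYSE410, and 3356 to 3999 higher and 4379 to 5105 lower for the difference. The difference in response gave 17 higher and 17 lower after rescaling to a common sum, where 2527 of all 13421 genes were higher and 6225 lower. With the length trend removed the splits were 23 and 21 in KYSE150, 29 and 14 in KYSE410, and 30 and 8 for the difference. Those of all genes were then 4184 and 4133 of 12181 in KYSE150, 4789 and 4700 of 11588 in KYSE410, and 3957 and 4147 of 12799 for the difference. Spearman's rho of change and transcript length over all genes was -0.272 in KYSE410 and 0.059 in KYSE150. Signs turned in KYSE410 after scaling by the median of ratios for HSPH1 (0.23), BAG4 (0.08), CCT2 (0.14), CCT4 (0.19) and CCT7 (0.15), after rescaling to a common sum for TCP1 (-0.10), CCT5 (-0.08), CCT6A (-0.20) and the summed CCT level (log2 ratio -0.14), with the length trend removed for HSPA4L (0.21), HSPH1 (0.36), BAG4 (0.20), CCT2 (0.02) and CCT4 (0.12), and without a library for HSPH1 (0.0049 and 0.05). In KYSE150 they turned for DNAJB1 (0.13 by the median of ratios, 0.16 with the length trend removed, 0.05 and 0.08 without a library), BAG3 (0.08 and 0.11 by the first 2 of these) and HSPE1 (-0.07 to 0.10 without a library, negative in 3 of 6 cases). The scalings shift all genes by construction; other causes were not tested. Same-numbered libraries did not deviate together (r from -0.069 to 0.084), so replicate numbers were not taken as pairs. With the replicate block 17 were higher and 23 lower in KYSE150, 24 and 18 in KYSE410, and 25 and 9 for the difference. Of all genes, 2922 were higher and 4835 lower in KYSE150 with that block, 3730 and 6201 in KYSE410, and 3555 and 4661 for the difference. Unknown depth limits what can be said of low genes such as HSPA2.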
